A study of Mus musculus with 4 samples.

Results

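The genes of the mitogen-activated protein (MAP) kinase cascade and of the dual-specificity phosphatases were measured in the mouse mammary carcinoma line 4T1, in cells with and without CD44v8-10, a splice form with variant exons of CD44, a receptor on the cell surface. Members were the genes whose annotated symbol is Mapk, Map2k, Map3k or Dusp followed by digits, or Mapkapk followed by a digit, which gave 59 of 18193 genes with a named probe set on the array, covered by 129 probe sets. Not every gene of the cascade was analysed here. The groups were 2 CD44v8-10-positive and 2 CD44v8-10-negative samples of cultured 4T1 cells, both kept in normoxia and serum-containing medium, with no drug, genetic change or time course named in the labels. The cells were picked by hand under a microscope, the labels do not state how CD44v8-10 was scored, and they name no separate cultures within a group. The p-values therefore refer to the spread between these samples alone, and that spread may be technical.

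In the MAP kinase cascade a MAP3 kinase phosphorylates a MAP2 kinase, which phosphorylates a MAP kinase on a threonine and a tyrosine of its activation loop. The branches end in ERK, which carries growth factor signals, in JNK and p38, which carry stress and cytokine signals, and in ERK5. The MAPKAP kinases are substrates that pass the p38 signal on. Dual-specificity phosphatases of the MAP kinase phosphatase class remove both phosphates and close the cascade, and several of them are themselves transcribed in response to MAP kinase activity. An mRNA level gives no measure of the phosphorylation state of any of these kinases.

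None of the genes passed the test between CD44v8-10-positive and negative cells. Of 59 members, 50 had a brightest probe set above the filter on dim signals (a mean normalized signal of about 19.4) and were tested. Of these 50, 0 passed limma at an adjusted p under 0.05 over 11956 genes (two-sided test, Benjamini-Hochberg adjustment), beside 0.0753% of all genes tested, and the lowest adjusted p was 0.830, that of Mapk13. At an unadjusted limma p under 0.05 there were 2 members higher in the positive cells, Mapk13 and Dusp8, and 2 lower, Dusp5 and Mapk8, beside 2.68% and 1.76% of all genes, or 4.45% in both directions. On the quantile-normalized values groups did not overlap in 19 members, 10 with the positive arrays higher and 9 lower, beside 32.3% of all genes (18.5% and 13.8%). The median log2 fold change of the members, positive minus negative on a log2(signal + 16) scale, was 0.06, against 0.03 over all genes tested. With arrays centred on their medians it was -0.04 against -0.07, and with no scaling -0.12 against -0.15. Log2 fold changes ran from -0.58 to 0.79 over the members, so 0 of them reached a difference of 1 in either direction, which 123 of all genes did. The 2 replicates of at least 1 group differed by more than the groups did in 38 of 50 members, or 76.0%, and in 80.9% of all genes.

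**Figure D1:**
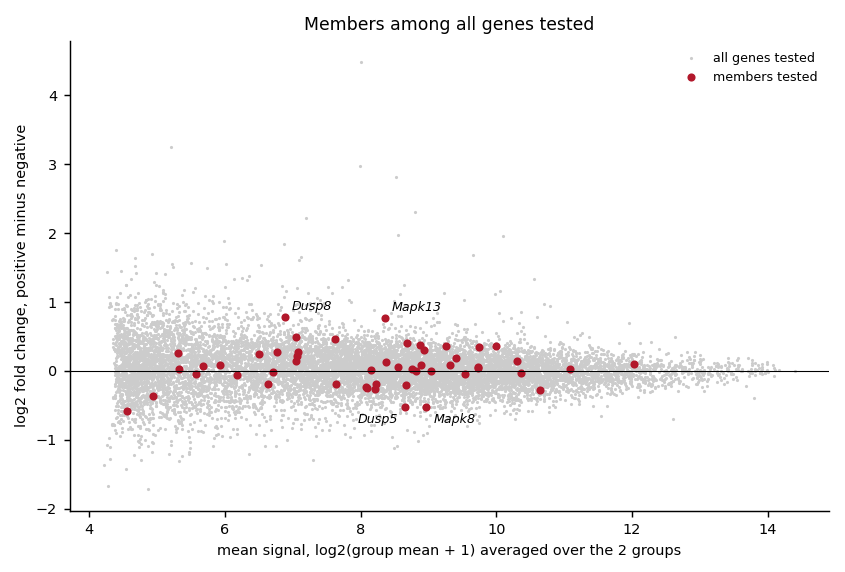
Log2 fold change (positive minus negative, log2(signal + 16) scale) against mean signal for all 11956 genes tested (grey) and the 50 members tested (red), with the 4 members at an unadjusted p under 0.05 named. The members run from -0.58 to 0.79, and 123 of all genes lie at a difference of 1 or more.

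The p38 kinases are described first and apart. Mapk13, which encodes p38 delta, had the lowest p-value of all members. Its normalized signal was 486 and 380 in the positive arrays and 240 and 252 in the negative arrays. The groups did not overlap, and the nearest positive and negative arrays stood farther apart than the arrays of either group. The group means were 433 ± 75.1 and 246 ± 8.33 (SD, n = 2 each). The log2 fold change was 0.77 ± 0.22 (SE, 95% interval 0.28 to 1.25), or 1.70-fold, with an unadjusted p of 0.00506 and an adjusted p of 0.830 by limma. Mapk13 was measured by a single probe set, so no second probe set bears on this value.

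Mapk11, which encodes p38 beta, had signals of 113 and 211 in positive arrays and 93.1 and 120 in negative arrays. The groups overlapped, since the lower positive array fell between the negative ones. Its log2 fold change was 0.49 (95% interval -0.16 to 1.14), which became 0.08 without positive replicate 2 and 0.89 without positive replicate 1, and its second probe set above the filter gave 0.22. Mapk12, which encodes p38 gamma, had 662 and 784 in positive arrays and 594 and 673 in negative arrays. These groups overlapped too, with a log2 fold change of 0.18 (95% interval -0.27 to 0.64) and 0.13 from its second probe set. Its brightest probe set gave 0.07 without positive replicate 2 and 0.30 without positive replicate 1.

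Mapk14 encodes p38 alpha, the widely expressed form. Its signals of 643 and 822 in the positive arrays enclosed those of 724 and 783 in the negative arrays. The log2 fold change was -0.05 (95% interval -0.51 to 0.41), and the 5 Mapk14 probe sets above the filter ran from -0.75 to 0.13, the lowest from a dim probe set with signals of 21.0 and 4.55 against 32.1 and 28.7. In the RefSeq gene table Mapk13 and Mapk14 are direct neighbours, as are Mapk11 and Mapk12, with 0 other genes starting between either pair. The values of the neighbours stood at 0.77 beside -0.05, and at 0.49 beside 0.18. Whether the members of a pair differ in their response was not tested.

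Upstream of p38 stand the MAP2 kinases Map2k3 and Map2k6. Map2k3 had signals of 1189 and 1484 in positive arrays and 1291 and 1108 in negative arrays, with overlapping groups and a log2 fold change of 0.15 (95% interval -0.28 to 0.58). Its second probe set above the filter gave 0.19. Map2k6 was not tested, because its mean lay below the filter: the signals were 3.33 and 4.03 in positive arrays and 25.2 and 12.8 in negative arrays, and only negative replicate 1 exceeded the filter level, so no fold is given.

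Downstream, the p38 substrate kinase Mapkapk2, known for its part in the stability of cytokine mRNAs, varied more within the groups than between them. Its signals were 291 and 628 in positive arrays and 353 and 521 in negative arrays. The log2 fold change was -0.0020 (95% interval -0.70 to 0.70), and leaving out positive replicate 1 or 2 gave 0.53 or -0.54. Mapkapk5 had the same layout, with 428 and 627 against 472 and 567 and a log2 fold change of 0.0030 (95% interval -0.51 to 0.52). Mapkapk3 had overlapping signals of 74.7 and 109 against 112 and 99.5 and a log2 fold change of -0.19, while its second probe set above the filter gave 0.77 ± 0.42 (SE), also with overlapping groups. Of the 9 genes of the p38 kinases and their branch 8 were tested, and 1, Mapk13, had groups that did not overlap, beside 32.3% of all genes.

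**Figure D2:**
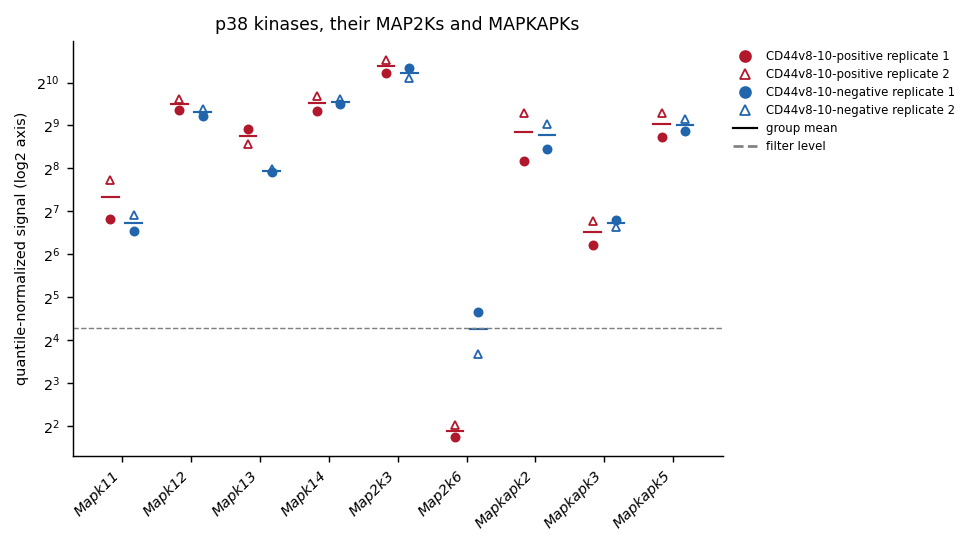
Quantile-normalized signal (log2 axis) of the 4 p38 kinases, the MAP2Ks Map2k3 and Map2k6 and the 3 MAPKAPKs in each array, with bars at group means and the filter level of 19.4 as a dashed line. The positive arrays of Mapk13 (486 and 380) lie above its negative arrays (240 and 252), and the groups of the other tested genes overlap.

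In the JNK branch, the JNK1 gene Mapk8 had a log2 fold change of -0.52 ± 0.24 (SE, 95% interval -1.04 to -0.0014) with an unadjusted p of 0.0495 and an adjusted p of 0.985 by limma. Its signals were 503 and 331 in positive arrays and 564 and 625 in negative arrays, so the groups did not overlap, while the positive arrays stood farther from each other than the higher of them stood from the negative arrays. This value came from the brightest of its probe sets. The 4 other Mapk8 probe sets above the filter gave -0.16 to 0.09, the next brightest -0.01 with signals of 351 and 389 against 398 and 349, and the mean over the 5 was -0.11 with an unadjusted p of 0.609. The brightest probe set gave -0.23 without positive replicate 2 and -0.80 without positive replicate 1.

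Mapk9, the JNK2 gene, had overlapping signals of 688 and 612 in positive arrays and 686 and 548 in negative arrays and a log2 fold change of 0.08 (95% interval -0.38 to 0.54). The MAP2 kinase Map2k4, which activates JNK, had 468 and 627 against 450 and 420, with groups that did not overlap and a log2 fold change of 0.31 (95% interval -0.18 to 0.79), and its second probe set gave 0.26. It was 0.10 without positive replicate 2 and 0.51 without positive replicate 1. The neuronal JNK3 gene Mapk10 was not tested, with signals of 6.48 to 13.3 that all lay below the filter level.

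By their brightest probe sets the MAP2 kinases of the ERK branch were close between the groups. Map2k1 had signals of 1181 and 1411 in positive arrays and 1368 and 1283 in negative arrays, with a log2 fold change of -0.04 (95% interval -0.45 to 0.38). Map2k2 had 875 and 857 against 837 and 822, a log2 fold change of 0.06 (95% interval -0.36 to 0.48). These Map2k2 groups did not overlap, but the difference was smaller than its standard error of 0.19. The dimmer Map2k2 probe set gave 1.14 ± 0.39 (SE), with signals of 165 and 247 against 46.8 and 139, also without overlap. Its adjusted p was 0.987 by limma when every probe set was tested on its own. With the mean of its probe sets Map2k2 was at 0.60, with an unadjusted p of 0.0291 and an adjusted p of 0.96 by limma. The 2 ERK5 branch genes tested, Mapk7 and Map2k5, were at -0.02 and 0.02. The 4 Map2k5 probe sets above the filter ran from -0.70 to 0.14. The lowest had signals of 164 and 107 in positive arrays against 247 and 208 in negative arrays, with groups that did not overlap. The atypical kinase gene Mapk6 (ERK3) was at 0.10 (95% interval -0.23 to 0.43), with signals of 4108 and 4498 against 4274 and 3751.

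Of the 15 MAP3 kinases 14 were tested, 8 above 0 (5 with arrays centred on their medians, 3 with no scaling) and 6 below, with a median log2 fold change of 0.05, ranging from -0.58 to 0.28. By the brightest probe sets groups did not overlap in 4 of the 14, all with the positive arrays lower, where 13.8% of all genes had that layout. Map3k4 and Map3k3, both at -0.19, were among them, and their probe sets differed. Another Map3k4 probe set gave 0.28, with groups that did not overlap and the positive arrays higher. The other Map3k3 probe sets gave -0.02 and 0.12 with overlapping groups. Map3k5, also called ASK1, is activated by oxidative stress and feeds JNK and p38. Its signals were 256 and 242 in positive arrays and 283 and 317 in negative arrays, a log2 fold change of -0.25 (95% interval -0.73 to 0.22), with -0.29 from its second probe set, whose groups overlapped. Map3k2, a MAP3 kinase upstream of ERK5, had 292 and 245 against 293 and 359 and a log2 fold change of -0.26 (95% interval -0.76 to 0.23). This became -0.12 without negative replicate 2 and -0.40 without negative replicate 1, and the mean of its probe sets was -0.14.

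Map3k7, the kinase TAK1 of the TGF-beta, interleukin and TNF pathways, had overlapping signals of 495 and 480 against 492 and 424 and a log2 fold change of 0.09 (95% interval -0.37 to 0.55). Map3k1, a MAP3 kinase of the JNK branch, was at -0.06 (95% interval -0.67 to 0.56), with signals of 65.7 and 74.2 against 69.0 and 77.6. Its other, dimmer probe set gave -0.92 ± 0.35 (SE), from signals of 19.9 and 20.5 in positive arrays and 44.9 and 60.4 in negative arrays. The lowest value of the tier, -0.58 for Map3k8 (Tpl2, upstream of ERK in inflammatory signalling), is not an exact size, because positive replicate 2 had a signal of 5.75, below the filter level; its groups overlapped. It was -0.08 without positive replicate 2 and -1.10 without positive replicate 1.

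The dual-specificity phosphatases had 20 of 24 genes tested, 14 above 0 (11 with arrays centred on their medians, 8 with no scaling) and 6 below, with a median log2 fold change of 0.07. Groups did not overlap in 7 with the positive arrays higher and in 4 with the positive arrays lower, where all genes gave 18.5% and 13.8%. The 10 classical MAP kinase phosphatases were all above the filter and ran from -0.52 to 0.79. Of these 10, 4 had all positive arrays above the negative (Dusp1, Dusp8, Dusp9 and Dusp16) and 3 had all positive arrays below (Dusp5, Dusp6 and Dusp10), while limma called 0 of them. These layouts are those of the brightest probe sets. Groups overlapped in the other probe sets of Dusp9 and in that of Dusp10, which gave 0.05. A dimmer Dusp7 probe set gave 0.52 with all positive arrays higher, while the groups of its brightest overlapped.

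Dusp8, which acts on JNK and p38, had the highest log2 fold change of all members. Its signals were 113 and 213 in positive arrays and 78.6 and 88.5 in negative arrays. The groups did not overlap, and the positive arrays differed from each other by more than the lower of them did from the negative arrays. The log2 fold change was 0.79 ± 0.30 (SE, 95% interval 0.13 to 1.44), with an unadjusted p of 0.0224 and an adjusted p of 0.985 by limma. It was 0.38 without positive replicate 2 and 1.19 without positive replicate 1. The second Dusp8 probe set above the filter gave 0.57, from overlapping signals of 82.9 and 143 against 54.9 and 85.1.

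Dusp5, a nuclear phosphatase with a preference for ERK and itself an ERK-induced transcript, had the lowest value of the phosphatases. Its signals were 318 and 349 in positive arrays and 516 and 454 in negative arrays, so the groups did not overlap. The log2 fold change was -0.52 ± 0.21 (SE, 95% interval -0.99 to -0.05), with an unadjusted p of 0.0319 and an adjusted p of 0.985 by limma. It was measured by a single probe set. Dusp6, the cytoplasmic ERK phosphatase that is also induced by ERK, had 1324 and 1574 against 1624 and 1896, a log2 fold change of -0.28 (95% interval -0.69 to 0.13). The groups of Dusp6 did not overlap, though the nearest arrays, at 1574 and 1624, lay close. The Dusp6 value was -0.15 without positive replicate 1 and -0.40 without positive replicate 2. Dusp4, a further ERK-induced nuclear phosphatase, overlapped between the groups, with 400 and 477 against 386 and 470 and a log2 fold change of 0.04 (95% interval -0.45 to 0.52).

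Dusp1, an immediate early phosphatase of p38 and JNK, had signals of 905 and 1032 in positive arrays and 788 and 731 in negative arrays. Its groups did not overlap, with a log2 fold change of 0.34 (95% interval -0.09 to 0.77). Dusp16, which prefers JNK and p38, had 510 and 559 against 377 and 444, a log2 fold change of 0.37 (95% interval -0.09 to 0.84). Its second probe set gave 0.36 with overlapping groups. Dusp9, a phosphatase that prefers ERK, was at 0.36 by its brightest probe set and at 0.18 and 0.08 by the others. The brightest gave 0.11 without positive replicate 2 and 0.61 without positive replicate 1.

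**Figure D3:**
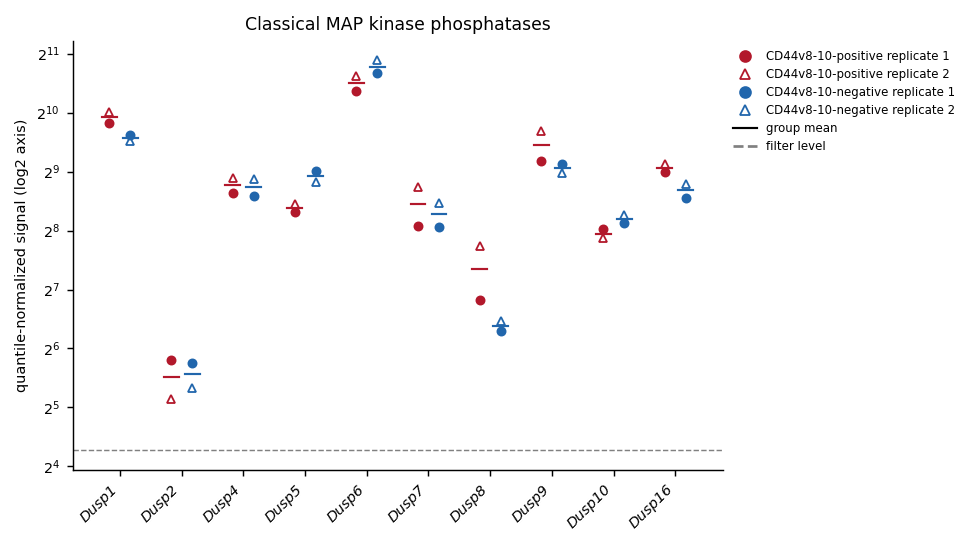
Quantile-normalized signal (log2 axis) of the 10 classical MAP kinase phosphatases in each array, with bars at group means and the filter level of 19.4 as a dashed line. Dusp8 (113 and 213 against 78.6 and 88.5) and Dusp5 (318 and 349 against 516 and 454) have groups that do not overlap and opposite directions, and neither passed the test.

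Among the other dual-specificity phosphatases, 10 of 14 were tested and 8 of the 10 lay above 0, beside 54.3% of all genes. The small atypical phosphatase Dusp3 had signals of 432 and 515 in positive arrays and 372 and 332 in negative arrays. Its groups did not overlap, its log2 fold change was 0.41 (95% interval -0.06 to 0.88), and its 2 other probe sets gave 0.43 and 0.27. Dusp14 had 1136 and 1162 against 976 and 812 and a log2 fold change of 0.36 (95% interval -0.07 to 0.79). It was 0.24 without negative replicate 2 and 0.49 without negative replicate 1. Dusp18 had the highest value of these genes, 0.46, from overlapping signals of 169 and 299 against 206 and 123, and -0.16 from its other probe set. Leaving out positive replicate 2 or negative replicate 2 gave 0.08 or 0.12, and leaving out positive replicate 1 gave 0.84. Dusp23 had the lowest, -0.36, from signals of 29.6 and 19.4 against 40.4 and 30.9; positive replicate 2 lay just below the filter level, so this is not an exact size.

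The 9 members that were not tested were Dusp15, Dusp21, Dusp26, Dusp27, Map2k6, Map3k21, Mapk4, Mapk10 and Mapk15. Each had a mean below the filter, and 0 to 2 of its arrays reached the filter level.

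**Figure D4:**
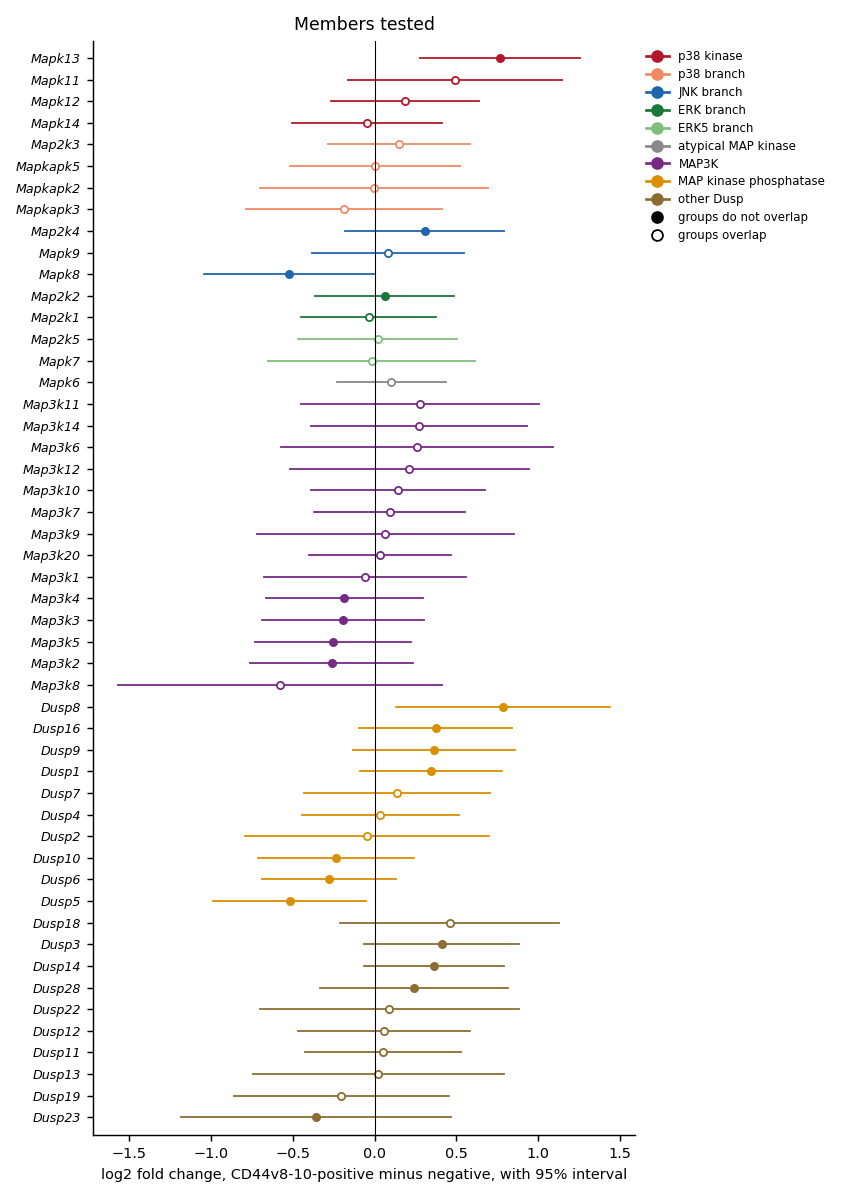
Log2 fold change (positive minus negative, log2(signal + 16) scale) of the 50 members tested, with the 95% interval from limma as a line, coloured by class. Filled points have groups that do not overlap; the intervals of Mapk13, Dusp8, Dusp5 and Mapk8 leave out 0, without adjustment for the number of genes.

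Probe sets of the same gene gave a check on the choice of the brightest. Of the 50 members tested, 31 had several probe sets above the filter, and the signs of the log2 fold changes agreed in 16 and differed in 15. The probe sets stayed close in Dusp16 (0.36 to 0.37), Map2k3 (0.15 to 0.19), Map3k5 (-0.29 to -0.25), Map2k4 (0.26 to 0.31) and Dusp3 (0.27 to 0.43). They lay farthest apart in Map2k2 (0.06 to 1.14), Mapkapk3 (-0.19 to 0.77), Mapk6 (-0.78 to 0.10) and Mapk14 (-0.75 to 0.13). Tested on their own, 107 member probe sets gave 3 higher and 4 lower at an unadjusted limma p under 0.05, beside 4.24% of all probe sets, and 0 at an adjusted p under 0.05. Beside probe sets of Mapk13, Dusp8 and Dusp5, these were dimmer probe sets of Map2k2, Map3k1, Map2k5 and Mapk6.

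**Figure D5:**
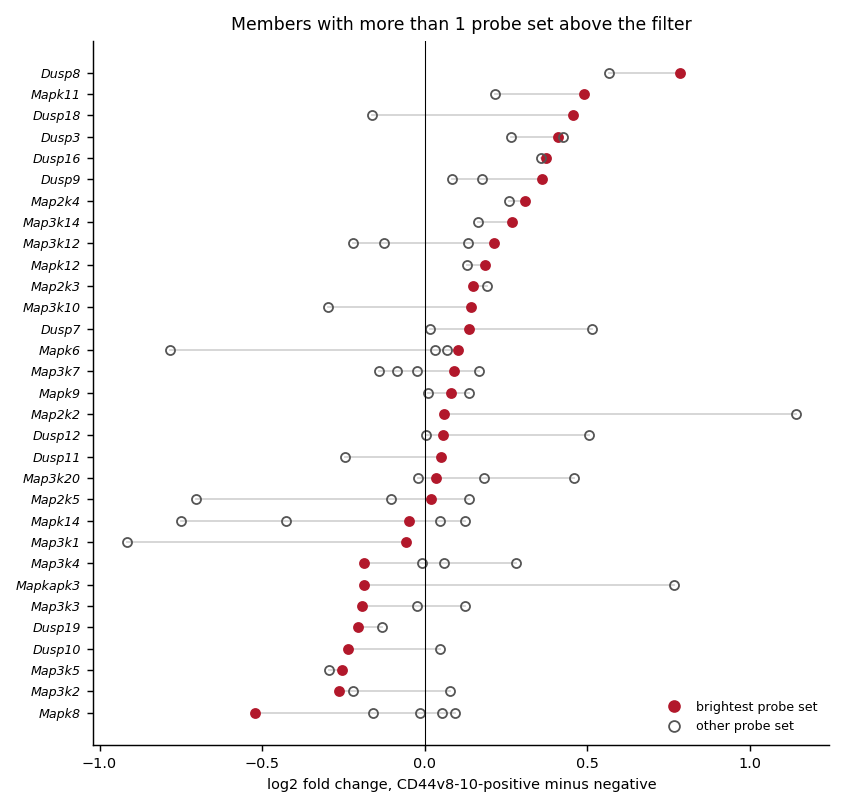
Log2 fold change of each probe set above the filter for the 31 members with more than 1, the brightest filled in red. The signs differ within 15 of the 31 genes, and Mapk8 has -0.52 at its brightest probe set and -0.16 to 0.09 at the others.

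The upstream sequences of the members with the lowest p-values that lie at a single listed start, Mapk13 and Dusp8 on the higher side and Dusp5 on the lower, are shown to let the genes be compared as regulatory regions. They are the 250 bases before the gene's start in the RefSeq promoter table of build GRCm38.p6, 5′ to 3′ on the gene's strand, which held a promoter for 49 of the 59 members. Capitals mark matches on either strand to the E-box CACCTG, bound by Zeb and Snail repressors of epithelial genes, to the cyclic AMP response element TGACGTCA, and to the CArG box of serum response factor.
Mapk13, chr17:28769067-28769316, plus strand: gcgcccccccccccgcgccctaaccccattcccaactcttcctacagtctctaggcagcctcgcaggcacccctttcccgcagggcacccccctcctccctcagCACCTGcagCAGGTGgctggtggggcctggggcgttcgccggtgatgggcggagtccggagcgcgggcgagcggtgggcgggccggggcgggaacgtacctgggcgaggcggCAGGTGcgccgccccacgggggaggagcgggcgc
Dusp8, chr7:142095285-142095534, minus strand: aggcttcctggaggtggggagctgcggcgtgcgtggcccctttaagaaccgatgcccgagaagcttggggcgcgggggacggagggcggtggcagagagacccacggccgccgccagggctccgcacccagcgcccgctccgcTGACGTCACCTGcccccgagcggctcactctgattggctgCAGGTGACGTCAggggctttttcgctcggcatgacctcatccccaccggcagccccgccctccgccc
Dusp5, chr19:53528895-53529144, plus strand: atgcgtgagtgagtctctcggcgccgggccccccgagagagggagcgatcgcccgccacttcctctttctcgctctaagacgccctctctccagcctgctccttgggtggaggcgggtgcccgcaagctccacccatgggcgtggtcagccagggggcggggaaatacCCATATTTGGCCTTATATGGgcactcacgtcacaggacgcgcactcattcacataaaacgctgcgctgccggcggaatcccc

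The Mapk13 stretch held 3 matches to CACCTG, which 0.247% of 32851 promoters of the same length held at least 3 times and 17.2% at least once. The Dusp8 stretch held 2 matches to TGACGTCA, each overlapping 1 of its 2 matches to CACCTG. Of all promoters, 1.55% held TGACGTCA at least once and 0.0304% at least 2 times, and 2.06% held CACCTG at least 2 times. The Dusp5 stretch held 2 adjacent CArG boxes, a motif found at least once in 1.47% of promoters and at least 2 times in 0.0183%. Among the first promoters of 49 members, these genes included, 22.4% held CACCTG at least once, 6.12% TGACGTCA and 2.04% a CArG box. Mapk8 has 2 listed starts, and the first held none of the motifs. The motifs were chosen with the sequences in view, a match describes letters only, and binding was not measured.

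Genes around the cascade, from lists of Ras and Raf genes, scaffolds and feedback inhibitors, MAP4 kinases, downstream kinases, ERK target transcripts and tyrosine phosphatases, had 48 of 52 tested. Of these, 0 passed limma over all genes. Without adjustment 1 was higher and 2 were lower at the same threshold, beside 2.68% and 1.76% of all genes. The median log2 fold change of the 48 was 0.02, and 56.2% of the 48 lay above 0, beside 54.3% of all genes. The Ras and Raf list had 8 of 12 above 0 (median 0.04), the scaffolds and feedback inhibitors 7 of 15 (-0.02), the MAP4 and TAO kinases 3 of 7 (-0.08), the downstream kinases 3 of 5 (0.02) and the ERK targets 6 of 9 (0.02), while 0 of 2 tyrosine phosphatases were above the filter.

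The gene higher at that level was the immediate early factor Fos, with 2334 and 2500 in positive arrays and 1674 and 936 in negative arrays. Its log2 fold change was 0.94 ± 0.24 (SE), with 0.532 as limma's adjusted p, and it was 1.34 without negative replicate 1 (adjusted p 0.00841) and 0.54 without negative replicate 2 (adjusted p 0.999). With no scaling the unadjusted limma p was 0.13. The genes lower at that level were the stress-activated kinase Rps6ka5 (MSK1), at -0.84 ± 0.30 from signals of 122 and 76.5 against 146 and 238, and the ERK inhibitor Spred1, at -0.53 ± 0.22 from 550 and 431 against 666 and 758. With the mean of their probe sets neither stayed under that level, Rps6ka5 at -0.32 (unadjusted limma p 0.200) and Spred1 at -0.26 (0.287). Rps6ka5 was also -0.50 without negative replicate 2 and -0.56 without positive replicate 2. It was -1.18 without negative replicate 1 and -1.13 without positive replicate 1.

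The deposited arrays differed in brightness, with 2% trimmed means of 237 and 220 in positive arrays and 196 and 345 in negative arrays, and were quantile normalized. All 5 epithelial markers were above the filter in every array. Limma called 1 of them, the adhesion molecule gene Epcam, with signals of 2309 and 2479 in positive arrays, 940 and 930 in negative arrays, a log2 fold change of 1.34 and an adjusted p of 0.0118. The groups of the keratin gene Krt19 did not overlap either (884 and 958 against 622 and 609), and those of Krt8, Krt18 and Cdh1 overlapped. Of the markers of other cell types, 2 of 8 fibroblast, 4 of 7 macrophage, 0 of 5 endothelial and 1 of 4 lymphocyte genes were above the filter. The summed macrophage signal was 452 and 614 in positive arrays and 385 and 362 in negative arrays. Cd14, Csf1r, Cd68 and Adgre1 were higher in both positive arrays, a layout that 18.5% of all genes had. Limma called 0 of these 4. Lyz2, with a mean below the filter, had 5.35 and 45.6 in positive arrays against 17.6 and 15.1 in negative arrays. Ptprc and Itgam lay below the filter level in every array. The summed endothelial signal, from genes below the filter, was 82 and 69 against 22 and 32. Of the 2 fibroblast markers above the filter, Pdgfra had 47.0 and 33.6 in positive arrays and 108 and 76.6 in negative arrays, while Col1a2 overlapped, with 42.1 and 48.3 against 38.6 and 48.3. The part of these markers in the values of Mapk13, Dusp8, Dusp5 and Mapk8 was not tested.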

How the data were processed

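Per the labels, total RNA of 2 CD44v8-10-positive and 2 CD44v8-10-negative 4T1 samples was run on Affymetrix arrays of a single colour. The deposited values are linear intensities, 1 per probe set and array (0.1 to 22695.6 over 45101 probe sets); the submitters' processing notes name GCOS without a role, and for the summary method, background correction and scaling the sources used here give nothing. The arrays' number limits the precision.

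The members, lists and tests were chosen with earlier results of these data known. Intensities were quantile normalized, transformed as log2(value + 16), and stripped of 64 control probe sets and of probe sets whose mean lay below the 40th percentile (log2 5.15), which left 27022. Names come from the platform annotation of 2016, for probe sets with 1 symbol. The probe set with the highest mean log2 value stood for each gene; the mean of linear signals would choose another in 1 member. Groups were compared with limma 3.58.1 in R 4.3.3 (lmFit and trended eBayes, 12.2 degrees of freedom, two-sided p adjusted over 11956 genes after Benjamini and Hochberg). Fold changes on this scale understate differences of dim genes. The procedure was tested on simulated data. Its planted changes were larger than that of any member, so recovery of changes of the members' size was not tested.

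Named were all p38 genes, the tested ERK and JNK branch genes, Dusp1, Dusp4, Dusp5, Dusp6, Map3k1, Map3k5 and Map3k7, members with an unadjusted p under 0.05, and among kinases and phosphatases the 3 highest and 3 lowest members with separated groups. The remaining genes were named after their values were seen. Alternatives were other scalings, pseudocounts, filters, probe set choices and eBayes settings, a replicate block, and the omission of single arrays, with the probe sets kept as chosen on all 4.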

Additional observations from a re-analysis of the deposited data

How the results depend on the processing

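No member passed limma's adjusted threshold under any of the 18 alternatives (0 called in each). Over all genes the 9 calls became 25 with arrays centred on their median (20 higher, 5 lower), 3 with no scaling, 3 with no filter, 2 without the intensity trend, 18 with the replicate block (15 higher, 3 lower), and 6 to 21 when 1 array was left out. Of 33 named genes, 20 kept their direction in every alternative that tested them, among them Mapk13 (0.56 to 0.94), Dusp8 (0.38 to 1.19), Dusp5 (-0.73 to -0.43) and Mapk8 (-0.80 to -0.11). The lowest adjusted p of Mapk13 was 0.299, with the replicate block. With no scaling its unadjusted limma p was 0.361, and 0 members were under 0.05 in either direction. The deposited Mapk13 signals, before normalization, overlapped, with 452 and 336 in positive arrays and 181 and 366 in negative arrays. So did those of Dusp8 (99.5 and 187 against 59.1 and 130) and Mapk8 (469 and 292 against 435 and 879). Among all members whose normalized groups did not overlap, only Dusp5 (291 and 308 against 397 and 645) and Dusp23 were also apart as deposited.

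The 13 others reversed at least once, and the cause was not tested. With arrays centred on their median Dusp4 was -0.087, Map2k2 -0.053, Map3k7 -0.029, Mapk9 -0.038 and Mapkapk5 -0.12; the median of all genes was then -0.07. With no scaling, where it was -0.15, Dusp4 was -0.17, Map2k2 -0.13, Map2k3 -0.051, Map3k7 -0.11, Mapk12 -0.015, Mapk9 -0.12, Mapkapk5 -0.20 and Mapk6 -0.034. Mapkapk5 was -0.014 with one trimmed mean, Mapkapk2 0.0047 with a pseudocount of 64, and Mapkapk3 0.29 and Mapk6 -0.14 with the mean of probe sets. Leaving out 1 array gave ranges of -0.10 to 0.17 for Dusp4, -0.16 to 0.089 for Map2k1, -0.0064 to 0.31 for Map2k3, -0.13 to 0.015 for Map3k1, -0.013 to 0.20 for Map3k7, -0.22 to 0.12 for Mapk14, -0.077 to 0.24 for Mapk9, -0.54 to 0.53 for Mapkapk2, -0.43 to 0.046 for Mapkapk3 and -0.26 to 0.27 for Mapkapk5. In these fits a lone array is assumed to vary like the other group.

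The labels give the groups the same replicate numbers, but no shared day or culture. Deviations of same-numbered arrays correlated at 0.12 over all genes, and with 2 pairs this does not show pairing. With the replicate number as a block the count of calls over all genes was 18, and 0 members.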
